A study of Rattus norvegicus with 24 samples.

Results

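The aminoacyl-tRNA synthetases are described here in INS-1 cells, an insulin-secreting line from a rat insulinoma that stands in for the beta cell of the pancreas. Members were taken by gene symbol from a list of 36 synthetase genes, and symbols ending in 2 were taken as the mitochondrial forms. A row was found for 35 of the 36 among 26404 gene identifiers, 20 cytosolic and 15 mitochondrial, and all 35 had a mean of at least 10 reads. Mars2 was not analysed here. Cells were treated with 100 nM of the incretin hormone GLP-1 (glucagon-like peptide 1, which acts on beta cells through cAMP), with 1 µM of BMS-21, which the labels give only as a code name, or with DMSO alone (Control), and RNA was collected after 1 h or 6 h. Each of the 6 groups had 4 libraries, 24 in all. All 6 groups shared 90 min in medium with 3 mM glucose and a change to fresh medium with 11 mM glucose just before treatment, so the time since treatment and the time since fresh medium cannot be told apart.

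A synthetase joins an amino acid to its tRNAs and so supplies the ribosome. The cytosolic enzymes serve translation of nuclear messages, and a separate set, also encoded in the nucleus, serves the ribosomes of mitochondria. Several cytosolic synthetases are held together with scaffold proteins in the multisynthetase complex, and the enzymes fall into class I and class II by the fold of their catalytic domain. The genes of many cytosolic synthetases are known targets of ATF4, the transcription factor of the integrated stress response, which cells raise when amino acids run short or proteins misfold. Insulin-producing cells carry a heavy load of protein synthesis.

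The libraries held 10667350 to 13148970 reads assigned to genes, and 3 reads, taken as the floor of detection, equalled 0.228 to 0.281 RPM (reads per 1000000 assigned reads), a limit set by counting alone. The labels do not say that the replicates were separate cultures, so a p-value here covers only the spread among these samples. The beta-cell label was checked against markers. Ins1 was at 8618 to 11710 and Slc2a2 at 1076 to 1856 RPM. Pdx1, Nkx6-1, Mafa and Iapp were all detected in the 24 libraries, and Chga, also on the marker list, had no value. Of the other cell types' markers Gcg reached 14.1 and Ghrl 2.39 RPM, and those of fibroblasts 0.251 (Col1a1) and 0.969 RPM (Col1a2). Markers of exocrine, duct, endothelial and blood cells were at or near 0. Levels are given as RPM on a scale common to all libraries (library totals adjusted with TMM factors) and are compared within a gene, not between genes, because transcript length was not taken into account. Beside a level in RPM the value after ± is the SD, and beside a log2 fold change it is the SE, with n = 4 in each group. For Control at 6 h against 1 h this SE was derived from the test's F statistic. The spread behind it was estimated over all 24 libraries. Where the libraries of a group are said to lie apart from those of another, the share of all genes so separated was not counted.

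Summed over the 20 cytosolic genes, the level was 6409 ± 161.9 RPM in Control at 1 h and 2712 ± 63.1 RPM in Control at 6 h, so that 42.3% of the early level was present at the later time. The sum with GLP-1 went from 6474 ± 72.9 to 3023 ± 79.9 RPM and that with BMS-21 from 6410 ± 159.3 to 3055 ± 78.7 RPM, which left 46.7% and 47.7%. At 6 h these sums were 11.5% and 12.7% above Control. The 15 mitochondrial genes summed to 276 ± 12.8 RPM in Control at 1 h and 290 ± 7.61 RPM at 6 h, to 270.3 ± 7.05 and 287 ± 8.59 RPM with GLP-1, and to 266 ± 1.62 and 283 ± 7.42 RPM with BMS-21. In bulk RNA, fewer cells making a transcript and less of it per cell cannot be told apart.

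**Figure D1:**
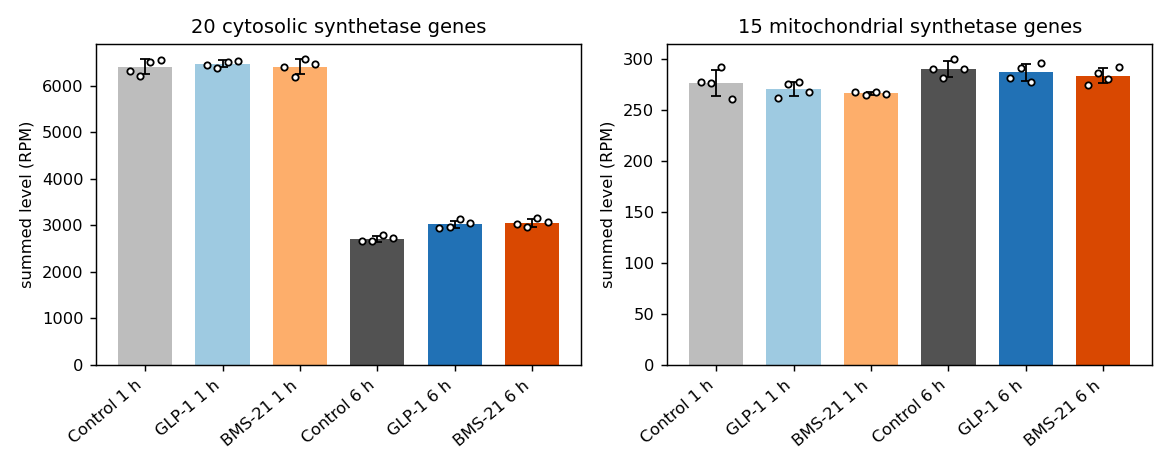
Summed level of the 20 cytosolic (left) and 15 mitochondrial (right) synthetase genes in RPM, for each treatment and time; bars are means of 4 libraries, error bars the SD and circles single libraries. The cytosolic sum is 6409 RPM in Control at 1 h and 2712 RPM at 6 h, while the mitochondrial sum is between 266 and 290 RPM in all 6 groups.

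The comparison of Control at 6 h with Control at 1 h shows what these genes did without either agent. Of the 20 cytosolic genes 17 fell, 2 rose and 1 did not pass the test (edgeR quasi-likelihood, Benjamini-Hochberg adjusted p under 0.05 over 13114 genes). Over all genes tested 52.9% passed, 26.9% lower and 26.0% higher. The median log2 fold change was -1.13 over the cytosolic genes and -0.01 over all genes. Taken for each replicate number apart, the cytosolic median was between -1.15 and -1.12. Within replicates 1 and 2 alone, and within replicates 3 and 4 alone, 17 cytosolic genes were again lower and 2 higher.

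Cars, which encodes the cysteinyl enzyme, was at 208, 211, 220.3 and 204 RPM in the 4 Control libraries at 1 h and at 37.5, 37.7, 34.4 and 32.3 RPM at 6 h. The groups were far apart, and the log2 fold change of -2.58 ± 0.07 was the largest among the members (adjusted p = 5.965e-22). Mars, the methionyl enzyme, went from 369, 369, 402 and 395 RPM to 94.8, 94.7, 105 and 99.8 RPM (-1.97 ± 0.05). Iars, the isoleucyl enzyme, went from 319.7, 310, 326 and 334 RPM to 84.45, 82.1, 86.4 and 86.1 RPM (-1.93 ± 0.04). In both genes every library at 6 h was below every library at 1 h. Sars, the seryl enzyme, was at 609, 605, 629.5 and 635 RPM early and at 169, 162, 173 and 161 RPM late (-1.90 ± 0.04). Yars, the tyrosyl enzyme, was at 460.4, 455, 482 and 475 RPM early and at 137, 136, 133.5 and 129 RPM late (-1.81 ± 0.03). Lars, the leucyl enzyme, was at 392, 387, 403 and 411 RPM early and at 124, 117, 133 and 133 RPM late (-1.66 ± 0.05). None of these 6 genes had overlapping groups. Their change had already passed the test, and the share of all genes without overlap was not counted.

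Eprs, whose product charges both glutamate and proline tRNAs, fell by 1.54 on the log2 scale, and Nars (asparaginyl) had a log2 fold change of -1.501 ± 0.04. Tars, the threonyl enzyme, went from 288, 288, 294 and 292 RPM to 115, 113, 123 and 114 RPM (-1.33 ± 0.03). Aars (alanyl) and Gars (glycyl) fell by 1.25 and 1.02. Wars (tryptophanyl), Vars (valyl) and Farsb, the beta subunit of the phenylalanyl enzyme, fell by 0.95, 0.91 and 0.88. The remaining falls were in Qars (glutaminyl, -0.64 ± 0.05), Dars (aspartyl, -0.41 ± 0.03) and Rars (arginyl, -0.28 ± 0.04), which were smaller than those of the other 14 genes. Farsa, the alpha subunit of the phenylalanyl enzyme, stood at 31.1, 32.6, 35.3 and 30.3 RPM early and at 29.8, 32.0, 31.2 and 32.8 RPM late (-0.05 ± 0.06, adjusted p = 0.518). The genes of the 2 subunits of this enzyme thus differed in their values, with Farsb at 105.9 ± 5.00 and 57.8 ± 3.01 RPM.

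Hars and Kars went the other way. Hars, the histidyl enzyme, was at 97.6, 102.5, 98.1 and 99.5 RPM in Control at 1 h and at 123, 123, 125 and 125.5 RPM at 6 h (0.31 ± 0.04, adjusted p = 1.31e-09). Kars, the lysyl enzyme, whose gene also gives the mitochondrial form, was at 88.0, 83.9, 85.6 and 81.8 RPM early and at 97.3, 93.5, 96.5 and 96.5 RPM late (0.17 ± 0.04, adjusted p = 8.41e-05). Neither gene had overlapping groups, but both had already passed the test, and overlap was not counted over all genes. Gars is likewise known to give both forms, and its level fell from 669 ± 14.8 to 332 ± 5.45 RPM.

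By class, 9 of 9 class I genes fell, with a median of -1.66, while of the 10 class II genes 7 fell and 2 rose, with a median of -0.95. Eprs has a domain of each class and is in neither count. Of the 8 enzymes of the multisynthetase complex 7 fell and 1 rose (median -1.09), and of the 12 outside it 10 fell and 1 rose (median -1.13). The differences between these subsets were not tested.

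**Figure D2:**
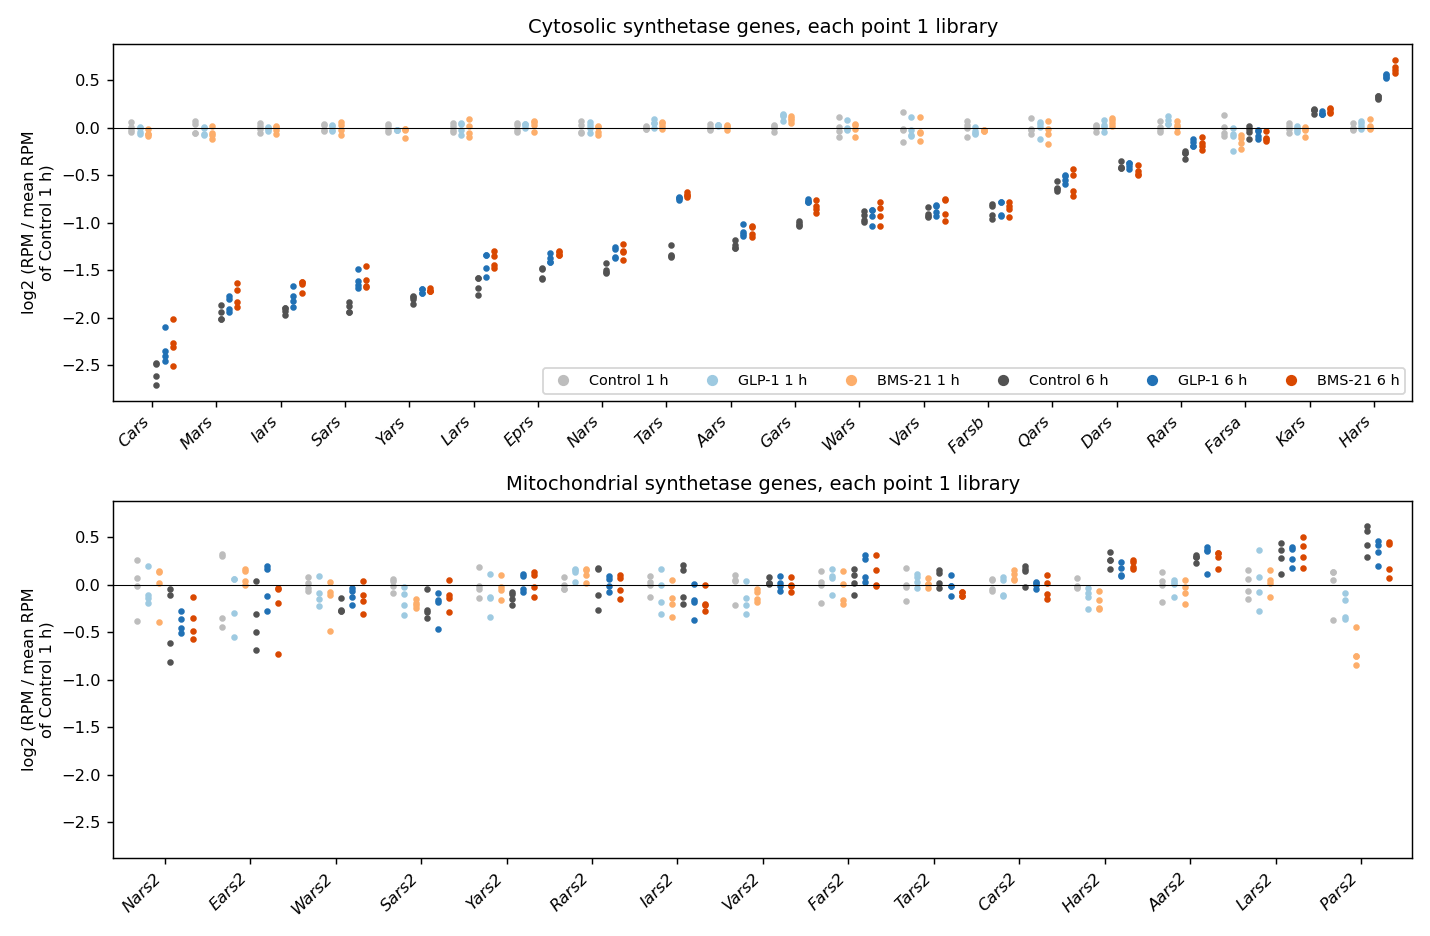
Level of each synthetase gene in each library as log2 of RPM over the gene's mean RPM in Control at 1 h, ordered by the change in Control; each point is 1 library and colours are the 6 groups. Most cytosolic genes (top) have their 6 h points well below 0, down to a Control fold change of -2.58 for Cars, while the mitochondrial genes (bottom) scatter around 0.

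Of the 15 mitochondrial genes 4 rose, 3 fell and 8 did not pass the test, and their median change was 0.02 on the log2 scale. The share called, 7 of 15, was near the 52.9% of all genes. Pars2, the prolyl enzyme, went from 9.47, 10.05, 10.1 and 7.08 RPM to 14.0, 11.2, 13.6 and 12.3 RPM (0.47 ± 0.11, adjusted p = 0.000279). Aars2 (alanyl) went from 22.2, 20.2, 20.7 and 17.8 RPM to 24.8, 24.8, 25.1 and 23.7 RPM (0.27 ± 0.07, adjusted p = 0.00145). Hars2 (histidyl) went from 30.5, 30.8, 32.9 and 30.9 RPM to 35.0, 37.5, 37.4 and 39.8 RPM (0.25 ± 0.06, adjusted p = 0.000291). In these 3 genes, which had passed the test, the groups did not overlap and no single library left out changed the call. Overlap was not counted over all genes. Lars2 (leucyl) was at 8.08, 9.97, 9.34 and 8.55 RPM early and 10.9, 9.73, 11.6 and 12.2 RPM late (0.30 ± 0.11, adjusted p = 0.0182), and the call was lost without Control 1h replicate 1 or Control 6h replicate 4 (adjusted p up to 0.0700).

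The 3 mitochondrial genes that fell were Nars2 (asparaginyl, -0.37 ± 0.15, adjusted p = 0.0370), Sars2 (seryl, -0.24 ± 0.09, adjusted p = 0.0216) and Wars2 (tryptophanyl, -0.24 ± 0.09, adjusted p = 0.0214). Each was lost on leaving out some single libraries. For Nars2 these were 5 of the 8 (Control 1h replicates 2, 3 and 4, Control 6h replicates 1 and 2, adjusted p up to 0.177). For Sars2 they were Control 1h replicate 4 and Control 6h replicates 1 and 3 (up to 0.0770), and for Wars2 they were Control 1h replicate 4 and Control 6h replicate 3 (up to 0.0658). Without Control 1h replicate 4 the mitochondrial count was 4 in place of 7. Cars2 passed only without Control 6h replicate 4 (adjusted p = 0.0434). Within replicates 1 and 2 the count was 3 higher and 1 lower, and within replicates 3 and 4 it was 4 higher and 0 lower. Ears2 (glutamyl) had the fewest reads, 22 in its lowest Control library at 6 h, and its -0.35 ± 0.20 did not pass.

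In these data 12 amino acids have 1 cytosolic and 1 mitochondrial gene, and their changes were set against each other within a replicate number. In 11 of the 12 pairs the cytosolic change was below the mitochondrial one in all 4 replicates. For Rars and Rars2, counted among the 11, the difference in replicate 2 was only -0.001. The widest gap was that of Cars and Cars2, with a mean difference of -2.66 ± 0.06 (SD, n = 4) in log2 fold change. Cars2 itself was at 22.0, 23.8, 24.0 and 22.2 RPM early and 25.3, 26.4, 25.8 and 22.7 RPM late. The gap was -1.93 ± 0.17 for Iars and Iars2 and -1.92 ± 0.19 for Lars and Lars2. It was -1.38 ± 0.14 for Tars and Tars2 and -0.27 ± 0.21 for Rars and Rars2. The pair without such a gap was Hars and Hars2, at 0.07 ± 0.10, in which both genes had risen. Hars2 lies 98 bases from Hars in the RefSeq annotation. Outside the 12, Eprs had a difference of -1.30 ± 0.50 to Ears2 and -1.98 ± 0.25 to Pars2. Farsb had -0.909 ± 0.075 to Fars2. Farsa had only -0.083 ± 0.112 to Fars2, below 0 in 3 of the 4 replicates. With 4 pairs of samples an exact sign-flip permutation test cannot go below 0.125, so no test of a gap was made.

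**Figure D3:**
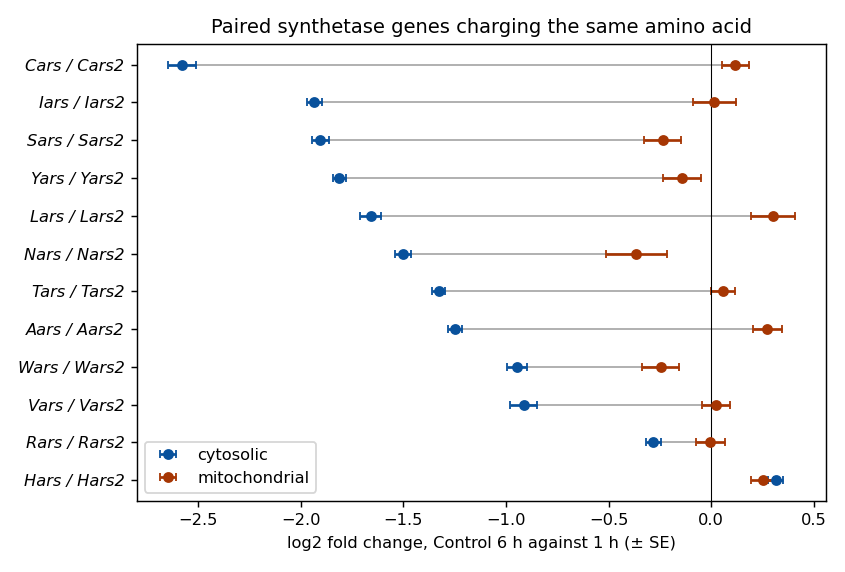
Log2 fold change of Control at 6 h against 1 h (± SE) for the 12 pairs of cytosolic (blue) and mitochondrial (brown) synthetase genes that charge the same amino acid. The cytosolic gene lies to the left in 11 pairs, from -2.58 for Cars to -0.28 for Rars, and Hars and Hars2 lie together at 0.31 and 0.25.

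Genes that work with the synthetases were read from lists, whose counts stand beside the 52.9% of all genes that passed in this comparison. The 3 scaffold genes of the multisynthetase complex all fell, Aimp1 by 0.67, Aimp2 by 0.30 and Eef1e1 by 0.14 on the log2 scale. Of 7 genes for tRNA export, editing and selenocysteine 2 fell and 1 rose. Xpot, which carries tRNA out of the nucleus, fell by 1.62 (from 416 ± 22.6 to 136 ± 11.7 RPM), and Dtd1, which removes wrongly attached D-amino acids, by 0.24. Of 5 cytosolic elongation factor genes 3 fell and 1 rose, with changes between -0.20 and 0.14. Among 9 mitochondrial partners and translation factors 2 rose, the elongation factor genes Gfm1 (0.35 ± 0.04) and Tufm (0.25 ± 0.04), and 3 fell, among them Gatb (-0.37 ± 0.07) and Gatc (-0.20 ± 0.05), subunits of the enzyme that makes glutaminyl-tRNA in mitochondria.

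The integrated stress response list, 13 genes, had 10 lower and 3 higher in Control at 6 h, where 26.9% of all genes were lower and 26.0% higher, with a median of -1.55. Atf4 was at 392, 396.5, 407 and 412 RPM at 1 h and at 215.5, 208, 215 and 233 RPM at 6 h (-0.89 ± 0.04, adjusted p = 2.742e-22). Asns, asparagine synthetase, a target of ATF4, was at 484, 482, 487 and 503 RPM early and at 170, 178, 156 and 166 RPM late (-1.55 ± 0.04). Sesn2 fell by 1.66 and Ppp1r15a, whose product reverses the response, by 2.17. The part of this response in the synthetase values was not tested.

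Promoter sequences show a feature that the choice of members did not use. RefSeq (build GRCr8) promoter windows, 250 bases before to 50 after the gene start, were searched on both strands for TGATGNAA, the letters of the C/EBP-ATF response element (CARE) that ATF4 is known to bind. Of the 20 cytosolic genes 17 had a window, and 7 of the 17 held the motif, namely Aars, Cars, Iars, Mars, Nars, Tars and Yars. Each of the 7 held the form TGATGCAA. None of the windows of the 16 listed mitochondrial genes held TGATGNAA. Among 33469 rat promoters of the same length 3.98% held TGATGNAA and 0.795% held TGATGCAA. The stretches around the motif of 4 cytosolic genes (in Tars, Iars and Mars the last 60 bases before the start), and the last 60 bases before the start of 2 mitochondrial partners, are given here 5′ to 3′ along the gene's strand, with the motif, which reads TTGCATCA on this strand, in capitals.
Tars (chr2:62114803-62114862, minus strand): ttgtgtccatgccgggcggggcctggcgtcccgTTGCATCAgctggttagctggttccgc
Iars (chr17:15193653-15193712, minus strand): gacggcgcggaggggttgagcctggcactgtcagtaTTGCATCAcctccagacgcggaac
Mars (chr7:65023754-65023813, minus strand): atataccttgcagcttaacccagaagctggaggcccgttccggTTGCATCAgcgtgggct
Aars (chr19:55908342-55908401, plus strand): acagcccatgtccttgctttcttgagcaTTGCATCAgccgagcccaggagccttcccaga
Tars2 (chr2:185999114-185999173, minus strand): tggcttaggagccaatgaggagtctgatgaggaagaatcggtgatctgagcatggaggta
Aars2 (chr9:22993537-22993596, minus strand): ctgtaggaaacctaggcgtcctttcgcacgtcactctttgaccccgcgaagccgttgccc

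In Tars, Iars and Mars the motif lay within 27 bases before the start, and in Aars at positions -112 to -105, with another copy at 10 to 17 after the start. In Control at 6 h against 1 h the 7 genes with the motif had log2 fold changes from -2.58 to -1.25 (median -1.81). The 10 genes whose window lacked it ranged from -1.90 to 0.31 (median -0.90), so the groups overlapped: Sars, Lars and Eprs, without the letters, fell as far as several that had them. The cAMP response element TGACGTCA, searched the same way because GLP-1 acts through cAMP, was in 0 of the 17 cytosolic and 0 of the 16 mitochondrial windows and in 1.83% of all promoters. A match is a description of the letters only, and a window without a match says nothing of binding elsewhere. The Mars gene overlaps Ddit3, Aars overlaps Ddx19b and Yars overlaps S100pbp in the RefSeq annotation, Sars2 overlaps Ccer2 and another protein-coding gene, and Cars, Dars, Hars, Iars, Sars, Aars2, Cars2, Iars2 and Nars2 overlap noncoding RNA genes or pseudogenes. Because the library kit does not mark strand, reads from such stretches cannot be told apart.

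At 1 h 2 synthetase genes passed, Gars with GLP-1 and Pars2 with BMS-21. With each agent this was 1 of the 35 genes, no larger a share than over all genes. With GLP-1 against Control, 1 of 20 cytosolic genes rose and 0 of 15 mitochondrial genes changed (limma on log2 of the normalised count plus 1, adjusted over 12715 genes, of which 6.58% passed, 4.17% higher and 2.41% lower). The median log2 fold change was 0.00 over the cytosolic and -0.08 over the mitochondrial genes. For the mitochondrial genes 1 had an unadjusted p under 0.05, and edgeR and DESeq2 called 0. The gene that rose was Gars, at 680.3, 668, 648 and 678 RPM in Control and 741, 733, 699 and 728 RPM with GLP-1, without overlap (0.12 ± 0.03, adjusted p = 0.0114). Its call was lost without replicate 3 of Control 1h or GLP-1 1h replicate 1 (adjusted p up to 0.0625), and within replicates 3 and 4 (0.11, adjusted p = 0.115). It held within replicates 1 and 2 (0.13, adjusted p = 0.00613).

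With BMS-21 at 1 h, 0 of 20 cytosolic genes passed in limma, in edgeR and in DESeq2, with 2 at an unadjusted p under 0.05, and 1 of 15 mitochondrial genes fell (5.91% of 12697 genes passed, 3.54% higher and 2.37% lower). The comparisons of GLP-1 and of BMS-21 share their Control libraries, so each one's values are given side by side and no overlap is drawn from them. Gars was at 726, 715, 692 and 705 RPM with BMS-21, all above Control (0.09 ± 0.03, adjusted p = 0.131). With the replicate number as a block Gars passed (adjusted p = 0.000401), and so did Hars2 (-0.18, adjusted p = 0.0270), which brought the counts to 1 cytosolic and 2 mitochondrial genes. That block raised the calls over all genes as well, from 450 higher and 301 lower to 851 and 700. Pars2, the mitochondrial prolyl enzyme, was at 5.46, 6.74, 5.09 and 5.45 RPM with BMS-21, below all 4 Control libraries at 9.47, 10.05, 10.1 and 7.08 RPM. Its log2 fold change was -0.67 ± 0.13 (adjusted p = 0.00106), it was -0.67 within each pair of replicates, and no library left out changed the call. With GLP-1 at 1 h Pars2 was at 7.14, 8.64, 8.22 and 7.25 RPM, which overlapped Control (-0.21 ± 0.12, adjusted p = 0.405). Pars2 rests on few reads, 61 in its lowest BMS-21 library.

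At 6 h some of the cytosolic genes rose with each agent and none fell. With GLP-1, 11 of 20 rose and 0 fell, where 31.7% of 12641 genes passed, 16.2% higher and 15.6% lower. With BMS-21, 12 of 20 rose and 0 fell, where 33.6% of 12640 genes passed, 16.8% higher and 16.8% lower. The median log2 fold change of the cytosolic genes was 0.13 with GLP-1 and 0.16 with BMS-21, and that of all genes was 0.00 in both. By replicate number the cytosolic median was 0.10 to 0.14 with GLP-1 and 0.14 to 0.16 with BMS-21. These medians were small beside the cytosolic median of -1.13 for Control over time, though single genes differed, and Hars had not fallen. Tars at its highest 6 h level, 182 RPM, was still below its lowest 1 h level in Control, 288 RPM.

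Tars had the largest change with both agents. It was at 115, 113, 123 and 114 RPM in Control at 6 h, at 173, 171, 176 and 173 RPM with GLP-1 and at 178, 175.5, 182 and 177 RPM with BMS-21. The log2 fold change was 0.58 ± 0.04 with GLP-1 (adjusted p = 1.32e-10) and 0.62 ± 0.04 with BMS-21 (adjusted p = 3.72e-11), and the groups did not come near each other. At 1 h the same gene was at 0.05 ± 0.03 and 0.03 ± 0.03, neither past the test. Tars2, its mitochondrial partner, was at 44.8, 40.7, 43.8 and 39.2 RPM in Control, at 40, 40, 37.0 and 43.1 RPM with GLP-1 (-0.07 ± 0.06, adjusted p = 0.406) and at 37.2, 37.1, 38.2 and 38.2 RPM with BMS-21.

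Hars rose further, from 123, 123, 125 and 125.5 RPM in Control to 142.5, 144, 146.5 and 146 RPM with GLP-1 (0.23 ± 0.03, adjusted p = 2.33e-05) and to 151, 148, 163 and 155 RPM with BMS-21 (0.31 ± 0.04, adjusted p = 1.23e-06). Its neighbour and partner Hars2 was at 37.4 ± 1.96 RPM in Control, 34.8 ± 1.59 RPM with GLP-1 and 36.3 ± 1.17 RPM with BMS-21 and passed in neither. Hars was thus the gene that both rose with time in Control and rose with the agents, whereas Kars had changes of -0.02 ± 0.04 and 0.00 ± 0.04.

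Sars was at 169, 162, 173 and 161 RPM in Control, at 192.5, 196, 220.1 and 202 RPM with GLP-1 (0.29 ± 0.04) and at 194, 193, 225 and 204 RPM with BMS-21 (0.30 ± 0.05), without overlap. Gars was at 326, 328.5, 338 and 334 RPM in Control, at 389, 397, 391 and 387 RPM with GLP-1 (0.24 ± 0.03) and at 377, 393, 359 and 369 RPM with BMS-21 (0.18 ± 0.04). Lars (0.22 ± 0.05 with GLP-1 and 0.26 ± 0.05 with BMS-21), Nars (0.18 ± 0.04 and 0.19 ± 0.04), Eprs (0.16 ± 0.04 and 0.22 ± 0.04) and Aars (0.15 ± 0.04 and 0.15 ± 0.04) rose as well. All 6 of these genes had every treated library above every Control library with each agent. They had already passed the test, and the share of all genes so separated was not counted.

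Cars, the gene with the deepest fall, was at 37.5, 37.7, 34.4 and 32.3 RPM in Control, at 38.3, 41.3, 49.2 and 39.9 RPM with GLP-1 and at 42.5, 43.8, 52.0 and 37.1 RPM with BMS-21. The GLP-1 libraries lay above Control and 1 BMS-21 library lay among them. Its log2 fold change was 0.25 ± 0.07 with GLP-1 (adjusted p = 0.0121) and 0.30 ± 0.08 with BMS-21 (adjusted p = 0.0112). The replicates were uneven: with GLP-1 it was 0.09 (adjusted p = 0.388) within replicates 1 and 2 and 0.41 (adjusted p = 0.000209) within replicates 3 and 4, and with BMS-21 it was 0.20 (adjusted p = 0.0197) and 0.40 (adjusted p = 0.158).

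Iars was at 84.45, 82.1, 86.4 and 86.1 RPM in Control, at 90.8, 87.1, 101.5 and 94.2 RPM with GLP-1 and at 104, 96.6, 104 and 103 RPM with BMS-21. It rose by 0.14 ± 0.05 with GLP-1 (adjusted p = 0.0211), a call lost without replicate 2 of Control 6h or GLP-1 6h replicate 3 (up to 0.0913) and within replicates 1 and 2 (0.10, adjusted p = 0.125), and by 0.27 ± 0.04 with BMS-21 (adjusted p = 2.545e-05). Mars rose with BMS-21 (0.20 ± 0.05, adjusted p = 0.00453) and had 0.11 ± 0.05 with GLP-1 (adjusted p = 0.0801), which passed without replicate 3 of Control 6h or GLP-1 6h replicate 2 (down to 0.0368). Rars was at the edge of the test, with 0.11 ± 0.04 for each agent (adjusted p = 0.0233 with GLP-1 and 0.0416 with BMS-21). Its GLP-1 call was lost without replicate 1 of Control 6h or GLP-1 6h replicate 2 or 3 (up to 0.0758), and its BMS-21 call without any 1 of 7 of the 8 libraries, all but BMS-21 6h replicate 1 (up to 0.152).

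The other 8 cytosolic genes, Dars, Farsa, Farsb, Kars, Qars, Vars, Wars and Yars, passed with neither agent and had log2 fold changes from -0.06 to 0.09. Yars lay above Control in all 4 libraries of each agent, at 129 to 137 RPM in Control, 139.7 to 144.5 RPM with GLP-1 and 141.5 to 145 RPM with BMS-21, and passed with the replicate block (0.09 in each, adjusted p = 0.0117 and 0.0367). With that block Mars and Qars also passed for GLP-1 (adjusted p = 0.00531 and 0.0336), which made 14 cytosolic genes with GLP-1 and 13 with BMS-21. The block raised the calls over all genes too, from 2044 higher and 1967 lower to 2716 and 2615 with GLP-1. With BMS-21 these went from 2125 and 2128 to 2504 and 2504. Within replicates 1 and 2 the cytosolic counts were 9 and 11 higher, and within replicates 3 and 4 they were 11 higher with GLP-1, and 12 higher and 1 lower (Dars, -0.12, adjusted p = 0.0328) with BMS-21. With scaling by library totals, which moved the calls over all genes from 2044 higher and 1967 lower to 1453 and 2965 with GLP-1 and from 2125 and 2128 to 1510 and 3068 with BMS-21, 8 cytosolic genes were higher with GLP-1, and 10 were higher and 1 lower with BMS-21.

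**Figure D4:**
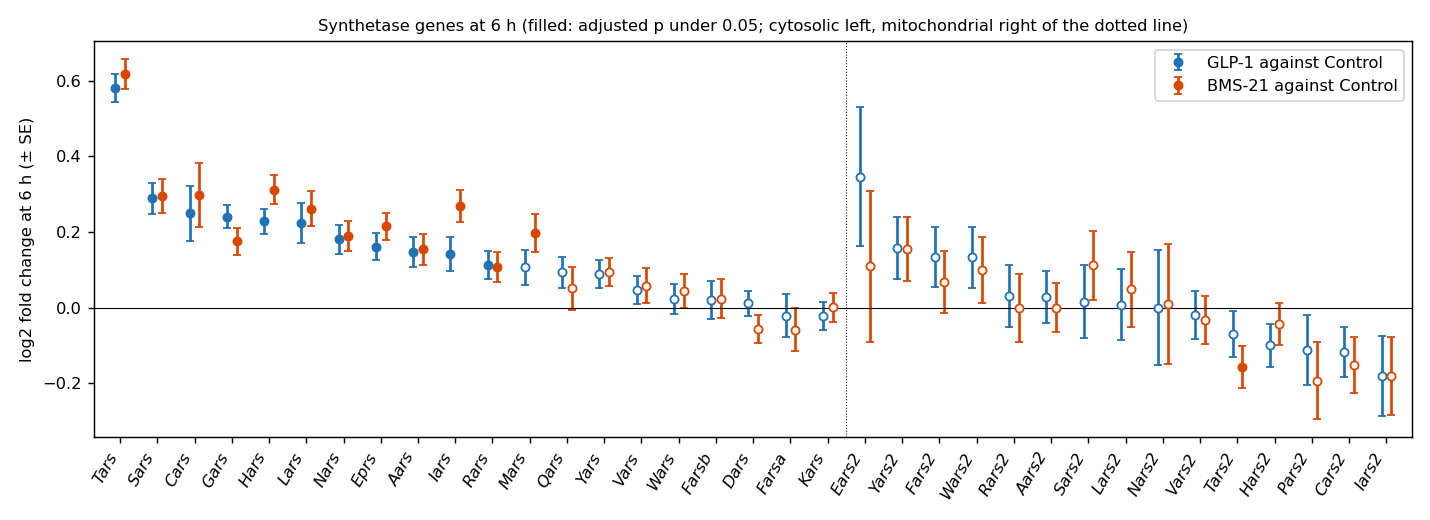
Log2 fold change at 6 h against Control (± SE) for GLP-1 (blue) and BMS-21 (orange), cytosolic genes to the left and mitochondrial genes to the right of the dotted line; filled points passed the test. Tars stands highest at 0.58 and 0.62, 11 and 12 cytosolic points are filled, and the single filled mitochondrial point is Tars2 with BMS-21 at -0.16.

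None of the 15 mitochondrial genes passed with GLP-1 at 6 h in limma, edgeR or DESeq2, and 0 had an unadjusted p under 0.05. Mean reads per library ran from 32.7 (Ears2) to 488 (Tars2) in these genes, and from 371 (Farsa) to 6407 (Gars) in the cytosolic ones. Small changes are harder to call at fewer reads, so the counts of calls in the 2 sets are not on an equal footing. Their changes ran from -0.18 (Iars2) to 0.35 (Ears2), with a median of 0.01. With scaling by library totals Cars2 (-0.17, adjusted p = 0.0494) and Hars2 (-0.15, adjusted p = 0.0428) passed as lower. With BMS-21, 1 of 15 fell, Tars2 (-0.16 ± 0.06, adjusted p = 0.0333), and the median was 0.00. Every BMS-21 library was below every Control library for Tars2, yet the call was lost without Control 6h replicate 1 or 3 or BMS-21 6h replicate 1, 2 or 4 (adjusted p up to 0.118), within replicates 3 and 4 (-0.12, adjusted p = 0.240) and in DESeq2 (adjusted p = 0.0823). Such separation of libraries was not counted over all genes. Rars2 had opposite values within the pairs of replicates, 0.21 (adjusted p = 0.0441) in replicates 1 and 2 and -0.21 (adjusted p = 0.0397) in replicates 3 and 4, and its Control levels were 30.3, 27.1, 36.5 and 36.8 RPM. The RefSeq span of Rars2 overlaps those of Orc3 and Slc35a1, with the same limit on its reads.

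BMS-21 was also set against GLP-1 directly, at doses that differ. At 1 h, 0 of the 35 synthetase genes passed, as did 0% of 12672 genes, and at 6 h 0 of 35 passed, as did 0.0158% of 12629 genes (0.00792% higher and 0.00792% lower). edgeR and DESeq2 also called none of the 35. At 6 h the cytosolic differences, BMS-21 minus GLP-1, ran from -0.06 (Dars) to 0.13 (Iars), and 2 of the 20 had an unadjusted p under 0.05, Iars (95% confidence interval 0.03 to 0.23) and Hars (0.01 to 0.17). For Tars the difference was 0.04, with an interval of -0.03 to 0.11, and for Gars -0.06 (-0.14 to 0.01). At 1 h the mitochondrial gene with an unadjusted p under 0.05 was Pars2, at -0.46 (interval -0.71 to -0.21, adjusted p = 0.9999), and with the replicate block it passed (adjusted p = 0.0242). With that block 28 genes were higher and 57 lower over all genes at 1 h, and 97 and 120 at 6 h, where 0 of the 35 passed. These intervals leave room for differences of the size of some of the agents' own effects.

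Whether the response to an agent was different at 6 h and at 1 h was tested as a difference of differences over all 24 libraries (edgeR). For GLP-1, 6 of 20 cytosolic genes had a higher response at 6 h, Cars, Hars, Lars, Nars, Sars and Tars, and 0 a lower one, where 17.3% of 13114 genes passed, 8.30% higher and 9.01% lower. Tars led with 0.53, and Sars had 0.28. The count was 3 without GLP-1 1h replicate 2, without Control 1h replicate 4 or without GLP-1 6h replicate 3, and 12 with the replicate block. That block raised the calls over all genes as well, from 1089 higher and 1181 lower to 1620 and 1708. In the main fit no mitochondrial gene passed for GLP-1, with 1 at an unadjusted p under 0.05, and DESeq2 called 0. For BMS-21, 11 of 20 cytosolic genes had a higher response at 6 h, with Tars at 0.58 and Cars at 0.36, where 21.7% of all genes passed, 10.8% higher and 10.9% lower. Of the mitochondrial genes Pars2 passed (0.50, adjusted p = 0.0220), lost without BMS-21 1h replicate 3, BMS-21 6h replicate 4, Control 1h replicate 3 or Control 6h replicate 2 (up to 0.0571) and within each pair of replicates (adjusted p = 0.0732 and 0.128).

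**Figure D5:**
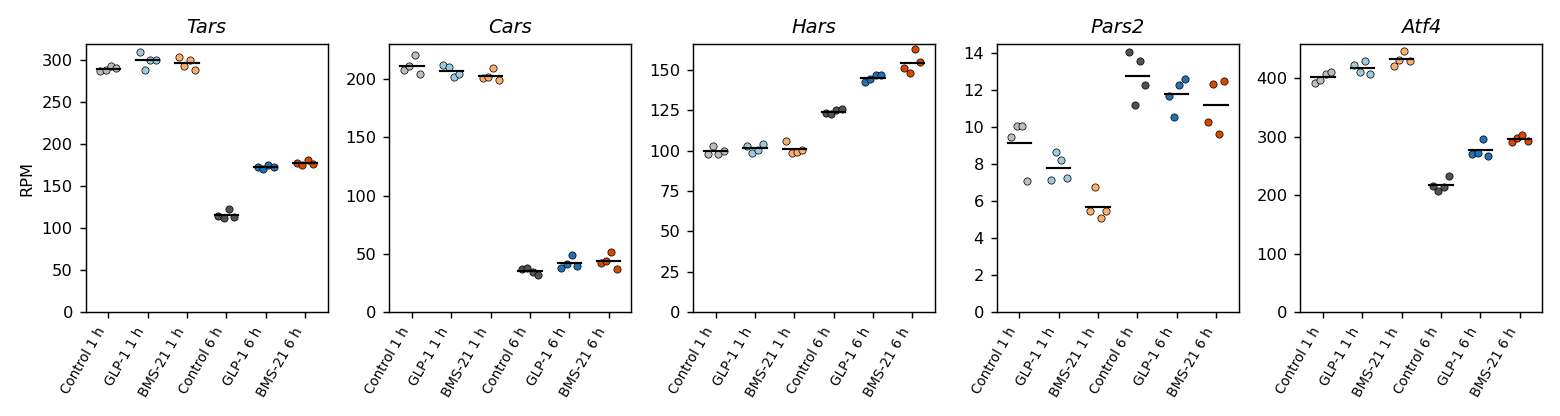
Level in RPM of Tars, Cars, Hars, the mitochondrial Pars2 and the transcription factor gene Atf4 in each library (points) with the group mean (bar), for the 6 groups. Tars, Cars and Atf4 are lower at 6 h than at 1 h and Hars and Pars2 higher, and Tars is at 116 RPM in Control, 173 RPM with GLP-1 and 178 RPM with BMS-21 at 6 h.

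The lists read beside the synthetases at 6 h stand beside a share of all genes past the test of 31.7% with GLP-1 and 33.6% with BMS-21. Of the 13 integrated stress response genes 6 rose and 1 fell with GLP-1, and 9 rose and 1 fell with BMS-21. Atf4 was at 215.5, 208, 215 and 233 RPM in Control, at 271, 273, 296 and 267 RPM with GLP-1 (0.35 ± 0.04, adjusted p = 6.66e-07) and at 291, 299, 303 and 293 RPM with BMS-21 (0.45 ± 0.04, adjusted p = 3.91e-09). Asns rose by 0.23 ± 0.04 and 0.20 ± 0.06, Ppp1r15a by 0.47 ± 0.07 and 0.57 ± 0.06, and Eif2ak3, a sensor kinase of misfolded protein, by 0.35 ± 0.08 and 0.46 ± 0.07. Eif2ak4, the sensor kinase of uncharged tRNA, was the gene that fell, by 0.23 with GLP-1 and 0.20 with BMS-21. At 1 h 3 of the 13 rose with each agent, where 4.17% and 3.54% of all genes rose, Cebpb (1.10 ± 0.06 and 1.09 ± 0.07), Atf3 and Ppp1r15a, while Atf4 had 0.06 ± 0.03 (adjusted p = 0.392) and 0.11 ± 0.03 (adjusted p = 0.0573).

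Of the 3 scaffold genes 2 rose with GLP-1, Aimp2 (0.12 ± 0.04) and Eef1e1 (0.12 ± 0.04), and 1 with BMS-21, Aimp2 (0.13 ± 0.05), while Aimp1 had -0.02 ± 0.05 and -0.06 ± 0.05. Xpot, which had fallen with time beside the synthetases, had 0.06 ± 0.10 and 0.09 ± 0.05 and did not pass. Of the 9 mitochondrial partners 2 passed with GLP-1 and 3 with BMS-21, no larger a share than over all genes. Tsfm, an elongation factor gene, rose with each agent (0.22 ± 0.07 and 0.18 ± 0.06), and Tufm rose with GLP-1 (0.13 ± 0.04). With BMS-21 2 rose, Tsfm and another gene not named here, and Gatb fell (-0.27 ± 0.08). By promoter letters, the 7 cytosolic genes with TGATGNAA had medians of 0.15 with GLP-1 and 0.20 with BMS-21, and the 10 without it 0.07 and 0.05, with Sars, Lars, Eprs and Hars among those without it that rose.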

How the data were processed

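The data are 24 RNA-seq libraries. The authors deposited normalised read counts, a linear signal, in 6 tables that each hold 2 groups of the same time, and every library has its own size factor in each table. Per the submitters' processing notes the genome build was Rnor_5.0 and the tools were TopHat2 2.0.12, Bowtie2 2.2.3.0, SAMtools 0.1.19.0, Subread, DESeq and DESeq2 1.6.3, without their roles. The annotation version is not given in the sources used here. Per the labels' protocols the libraries came from a kit that does not mark strand. In each library the values were whole multiples of 1 step (100% within a tolerance of 0.001), so whole reads were recovered.

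Pairs of groups at a time were compared with limma 3.58.1 (trend and robust) on log2(deposited normalised count + 1), leaving out genes whose mean was under 10, so a fold change understates that of low genes. Control at 6 h against 1 h and the changes of response used edgeR 4.0.16 (quasi-likelihood, TMM, filterByExpr) on recovered reads of all 24 libraries, since no table holds both times. Both ran in R 4.3.3, were tested on simulated data, and used Benjamini-Hochberg adjusted p under 0.05 over all genes tested. Members and lists were chosen with earlier results of these data known. All members may be named, those past the threshold with the largest changes (up to 6 a direction) are given in full with their partners, and of each list up to 4 genes with the smallest adjusted p are named, with Atf4 and Asns throughout.

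Same-numbered libraries deviated together from their group means (correlations 0.126 to 0.406 over 36 pairs of libraries and 10799 genes). The first principal component separated replicates 1 and 2 from 3 and 4, and comparisons were repeated within each. Libraries of different numbers were not compared, so whether a pairing by number goes beyond that split was not tested. Alternatives were pseudocounts of 0.5 and 5, a minimum mean of 50 or no filter, library totals, a single fit of all libraries, edgeR and DESeq2 1.42.0 on recovered reads, a minimum fold of 1.2, the replicate block and leaving out each library.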

Additional observations from a re-analysis of the deposited data

Results flagged for a closer look

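In 8 of the 210 sets of 4 libraries examined (35 genes in 6 groups) 1 library stood apart from the other 3 by Dixon's criterion, and chance alone marks about 1 set in 20. In RPM, Dars was at 200.3 in Control 6h replicate 3 against 189.6 to 191.3 in the others. Eprs was at 733.4 in GLP-1 1h replicate 1 (others 754.4 to 758), Iars at 96.64 in BMS-21 6h replicate 2 (103.3 to 104.3) and Kars at 95.88 in GLP-1 6h replicate 4 (93.47 to 93.75). Yars was at 432.7 in BMS-21 1h replicate 2 (458.9 to 462.5), Aars2 at 21.86 in GLP-1 6h replicate 1 (25.86 to 26.59), Hars2 at 32.89 in Control 1h replicate 3 (30.52 to 30.92) and Wars2 at 13.76 in Control 6h replicate 4 (12.45 to 12.55).

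The response to an agent differed between 6 h and 1 h (edgeR, difference of differences, log2 scale, positive where the response was higher at 6 h) in the following members. With GLP-1 these were Tars (0.526, adjusted p = 2.015e-11), Sars (0.284, adjusted p = 0.000451), Cars (0.277, adjusted p = 0.0470), Lars (0.221, adjusted p = 0.0278), Hars (0.191, adjusted p = 0.00536) and Nars (0.168, adjusted p = 0.0264). With BMS-21 they were Tars (0.585, adjusted p = 9.10e-13), Pars2 (0.505, adjusted p = 0.0220), Cars (0.360, adjusted p = 0.00726), Sars (0.299), Hars (0.288), Iars (0.282), Lars (0.269), Mars (0.256), Nars (0.213), Eprs (0.186), Aars (0.146) and Yars (0.134, adjusted p = 0.0242). On leaving out single libraries the GLP-1 calls of Cars (12 libraries), Lars (7 libraries) and Nars (6 libraries) were lost, of the 16 each comparison used, and so were the BMS-21 calls of Aars (5 libraries), Pars2 (4 libraries) and Yars (3 libraries).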

How the results depend on the processing

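For Control over time the count of cytosolic genes past the test was 19 (17 lower and 2 higher) and stayed 19 under every setting run. Counts of members past the threshold that moved by over 1.5 times follow, with the cause not tested unless the setting itself removes genes or libraries. A fold of at least 1.2 left 2 of 11 cytosolic genes for GLP-1 and 5 of 12 for BMS-21 at 6 h, and 0 of 1 for GLP-1 at 1 h. For BMS-21 at 6 h the mitochondrial count of 1 became 0 with that fold, with no filter on low values and in DESeq2. Library totals gave 0 cytosolic genes for GLP-1 at 1 h, 2 mitochondrial genes for GLP-1 and 2 for BMS-21 at 6 h, and 2 mitochondrial genes for the change in BMS-21 response. The replicate block gave 1 cytosolic and 2 mitochondrial genes for BMS-21 at 1 h, 1 mitochondrial gene for BMS-21 against GLP-1 at 1 h, and, for the change in response, 12 cytosolic genes with GLP-1 and 3 mitochondrial genes with BMS-21. It raised the calls over all genes too, for the change in BMS-21 response from 1411 higher and 1433 lower to 1938 and 1913. In that last contrast the block also called Gars (0.088) and, as lower, Dars (-0.120) among the cytosolic genes. Apart from these and the calls given in the text and in the changes of GLP-1 response (Aars, Eprs, Gars, Iars, Mars and Yars added), the block changed no other call. Within replicates 1 and 2 the counts were 1 mitochondrial gene for GLP-1 at 1 h, 3 for BMS-21 at 6 h and 4 for Control over time. Within replicates 3 and 4 they were 0 cytosolic genes for GLP-1 at 1 h, 1 mitochondrial gene for GLP-1 at 6 h, 4 for Control over time and 0 for the change in BMS-21 response. Rars2 with BMS-21 at 6 h was not called in the main fit, with means of 32.7 RPM in Control and 32.4 RPM with BMS-21. Within replicates 1 and 2 it passed, at 0.208. Leaving out 1 library gave 0 to 1 cytosolic genes for GLP-1 at 1 h, 0 to 2 mitochondrial genes for BMS-21 at 6 h, 4 to 7 for Control over time, 3 to 8 cytosolic and 0 to 1 mitochondrial genes for the change in GLP-1 response, and 0 to 3 mitochondrial genes for that in BMS-21 response. The other counts, 334 of 374, stayed within 1.5 times. With library totals the median of all genes at 6 h was -0.0538 (GLP-1) and -0.0585 (BMS-21), against -0.0007 and -0.0015 in the main fit. Depth limits the genes with few reads, such as Ears2 and Pars2, and the mitochondrial genes more than most cytosolic ones.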
